A study of Mus musculus with 22 samples.

Results

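The genes described here were 49 developmental regulators of the forkhead (19 genes), Pax (8), Gata (5), Lhx (8), sine oculis homeobox (4, namely Six2, Six3, Six4 and Six6) and Nkx (5) families, taken by name from a fixed list, among 26180 mouse genes with a curated RefSeq transcript on GRCm38. For each gene the window of 1 kb on each side of the transcription start site (TSS) and the gene body were examined in 16 peak lists. The lists came from the mouse embryonic stem (ES) cell line 16.7, a single hybrid line (CAST/Ei x 129/Sv/Jae), which had been freed of feeder cells and collected 12 h after transfection with a locked nucleic acid (LNA) gapmer. The gapmer was either a scramble control (scramble KD) or complementary to TERRA (TERRA KD), the telomeric UUAGGG-repeat RNA, and each condition had 2 replicates. Accessible chromatin was profiled by ATAC-seq, and ATRX, a chromatin remodeler, histone H3 lysine 9 trimethylation (H3K9me3), a mark of heterochromatin, and DNA G-quadruplexes (G4), structures of stacked guanine tetrads in G-rich DNA, by ChIP-seq. A condition's 2 G4 libraries had 1 input between them, ATRX and H3K9me3 of a replicate shared theirs, and ATAC-seq had none.

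The 6 families hold DNA-binding regulators that set up cell lineages in the embryo. Forkhead factors of the Foxa group are pioneer factors of endoderm and liver, Pax genes pattern the neural tube, eye, kidney, muscle and vertebrae, and Gata factors direct blood, heart and endoderm. LIM homeodomain (Lhx), sine oculis homeobox and Nkx genes specify forebrain, pituitary, eye, kidney, heart, lung, thyroid and pancreas. In ES cells the start sites of such genes are known as CpG-rich and as mostly silent or poised, apart from a few regulators that ES cells use themselves, such as Foxd3 and Foxh1. No RNA was measured in the peak lists, so the expression of the genes is not described.

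The windows of the members were richer in G and C than those of most genes. Their median GC content was 58.4% (lowest 48.6% at Lhx8, highest 70.1% at Foxf1) against 50.9% over all genes. By the rule used here, a stretch of 500 bp with an observed to expected CpG ratio over 0.75 and a GC content over 55%, 42 of 49 members had a CpG-rich window against 45.9% of all genes. The exceptions were Foxh1, Foxi1, Pax8, Pax9, Lhx3, Lhx9 and Nkx2-5. A G4 motif, spelled as 4 or more runs of at least 3 G separated by 1 to 7 bases of any kind and searched on both strands, was present in the windows of 39 members (79.6%), of 54.9% of all genes and of 72.7% of the 12024 genes with a CpG-rich window. Lhx2, a regulator of forebrain and eye, held 8 motifs, the highest number among the members.

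The 250 bases upstream of 6 start sites are shown because the results below turn on these genes. They are RefSeq sequences of GRCm38.p6, written 5′ to 3′ on the strand of the gene. In Lhx2 (chr2:38339031-38339280, plus strand), Foxd3 (chr4:99656049-99656298, plus strand) and Gata3 (chr2:9878601-9878850, minus strand) the capitals mark the G4 motif, read as runs of G or, where the motif is on the other strand, as runs of C.
Lhx2: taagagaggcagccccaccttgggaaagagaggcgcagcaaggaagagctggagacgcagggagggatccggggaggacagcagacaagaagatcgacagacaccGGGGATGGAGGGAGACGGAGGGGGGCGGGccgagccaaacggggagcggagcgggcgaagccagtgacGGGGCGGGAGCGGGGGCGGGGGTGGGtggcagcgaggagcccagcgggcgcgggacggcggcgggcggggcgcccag
Foxd3: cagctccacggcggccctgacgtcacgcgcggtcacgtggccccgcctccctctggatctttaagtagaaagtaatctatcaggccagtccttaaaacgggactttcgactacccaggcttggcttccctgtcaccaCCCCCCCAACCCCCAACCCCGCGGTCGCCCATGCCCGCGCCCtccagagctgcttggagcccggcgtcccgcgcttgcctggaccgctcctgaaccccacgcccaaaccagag
Gata3: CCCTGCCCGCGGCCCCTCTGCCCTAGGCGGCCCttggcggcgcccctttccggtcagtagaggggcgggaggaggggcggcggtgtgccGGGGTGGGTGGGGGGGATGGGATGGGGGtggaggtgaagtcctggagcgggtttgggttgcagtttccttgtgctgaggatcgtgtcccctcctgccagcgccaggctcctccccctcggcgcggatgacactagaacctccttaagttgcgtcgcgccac

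In Lhx1 (chr11:84525535-84525784, minus strand), Six6 (chr12:72939632-72939881, plus strand) and Gata2 (chr6:88193641-88193890, plus strand) these bases held no such motif, and the capitals mark CpG dinucleotides, of which there were 26, 17 and 22.
Lhx1: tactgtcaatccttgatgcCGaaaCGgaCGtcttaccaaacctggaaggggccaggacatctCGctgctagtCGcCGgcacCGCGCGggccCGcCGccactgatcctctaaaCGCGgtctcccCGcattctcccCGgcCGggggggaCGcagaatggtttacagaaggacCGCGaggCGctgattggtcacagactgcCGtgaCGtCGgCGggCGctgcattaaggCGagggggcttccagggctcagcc
Six6: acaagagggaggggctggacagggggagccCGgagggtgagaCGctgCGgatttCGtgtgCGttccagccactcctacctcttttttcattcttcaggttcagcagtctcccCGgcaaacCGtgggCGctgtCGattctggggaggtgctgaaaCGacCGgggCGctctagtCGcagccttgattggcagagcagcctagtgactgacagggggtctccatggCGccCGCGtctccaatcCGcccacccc
Gata2: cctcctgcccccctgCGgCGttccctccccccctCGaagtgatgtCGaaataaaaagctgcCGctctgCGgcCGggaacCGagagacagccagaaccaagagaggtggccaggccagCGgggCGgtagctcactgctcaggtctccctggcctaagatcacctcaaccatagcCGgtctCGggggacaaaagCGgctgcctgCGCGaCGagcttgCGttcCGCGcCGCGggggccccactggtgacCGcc

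The upstream 250 bases were at hand for 37 of the members, and 17 of these genes held a G4 motif there. Counted by promoter entry, the motif was found in 34.0% of 50 entries of the members and in 16.7% of 32851 entries of all genes. Foxb1, Foxc2, Foxe1, Foxf1, Foxh1, Foxj1, Foxp2, Foxq1, Pax3, Gata4, Gata6 and Lhx5 were not in the table of promoter sequences.

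The libraries behind the lists held from 2961038 to 24588605 tags, the 2 extremes being G4 scramble KD replicates 1 and 2. Peaks of low height are missed more readily in a shallow library, and the tag and peak numbers of the lists limit the precision of every count given here. With 2 lists per condition the exact permutation test cannot give a p below 0.33, and a threshold of 0.05 was out of reach. The G4 list of TERRA KD replicate 2 stood apart from the other 3, and G4 results are therefore given with and without it. As a check of the cell type, 8 of 10 ES cell markers, among them Pou5f1 and Sox2, had an ATAC peak at the TSS in all 4 lists. Of all genes 57.1% had one in all 4 lists and 32.8% in none. Of 10 fibroblast markers 4 had a peak in all 4 lists and 4 (Col3a1, Lum, Pdgfra and Postn) had none. The part of any remaining feeder cells in the results was not tested.

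**Figure D1:**
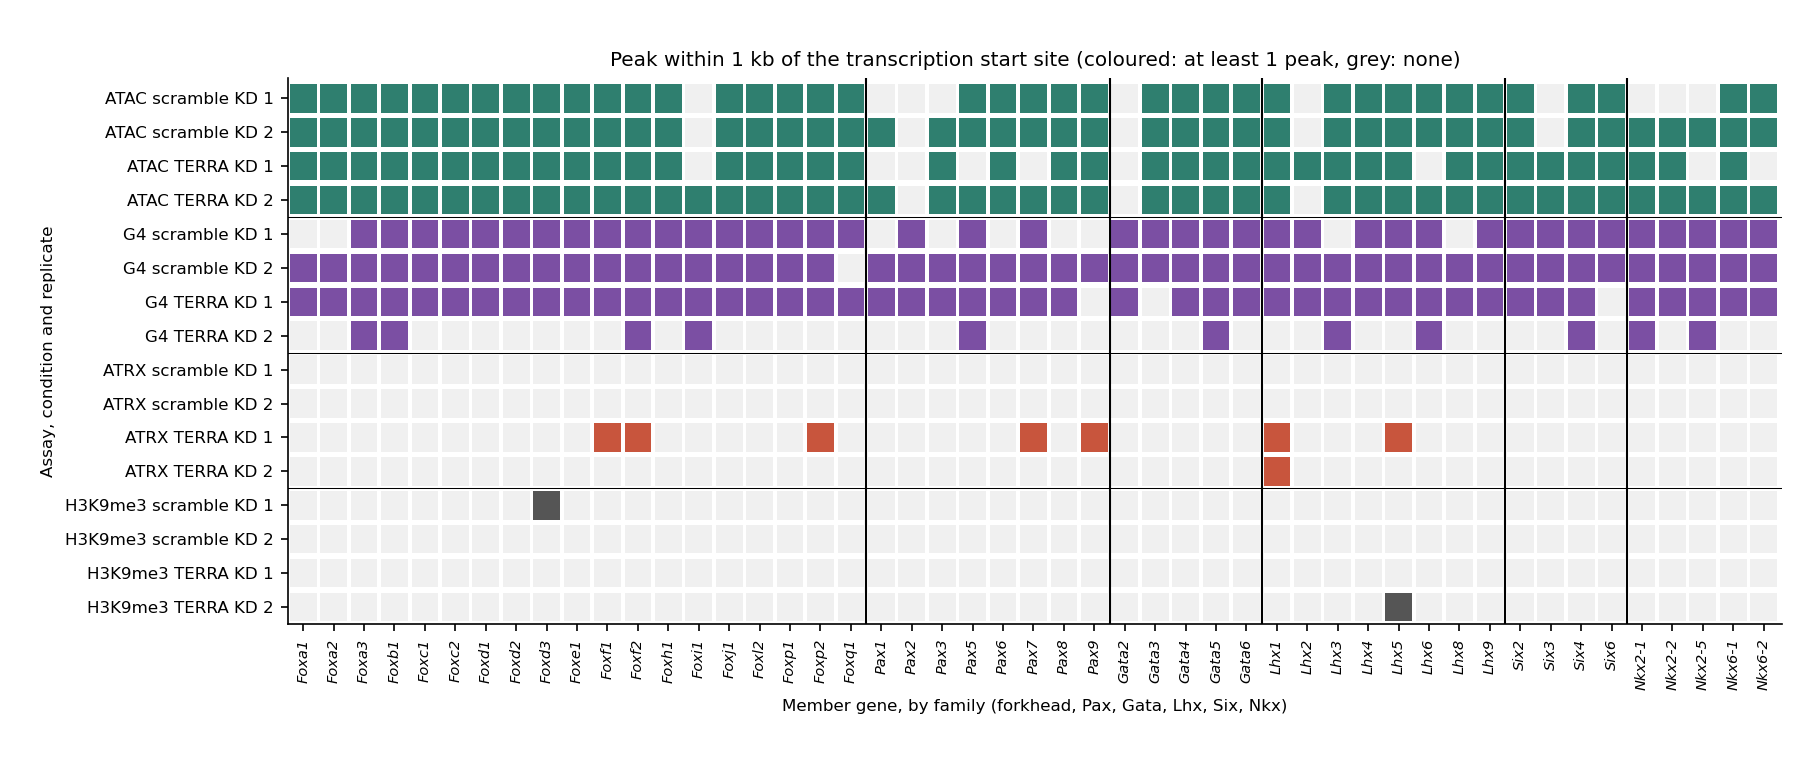
Presence of peaks within 1 kb of the TSS. Each column is a member gene, ordered by family, and each row is 1 of the 16 lists; a coloured square stands for at least 1 peak. ATAC and G4 squares fill most columns except in G4 TERRA KD replicate 2 (11 of 49), and ATRX squares appear in the TERRA KD lists alone.

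Most members were accessible at the TSS in these ES cells. An ATAC peak was found at 39 of 49 members in scramble KD replicate 1 and 44 in replicate 2, and at 40 and 46 in the respective TERRA KD lists. Over all genes the shares were 59.4%, 63.5%, 62.3% and 64.2% in the same order. In per cent of members scramble KD gave 79.6% and 89.8% (84.7% ± 7.22, SD, n = 2), while TERRA KD gave 81.6% and 93.9% (87.8% ± 8.66, SD, n = 2). The difference of 3.06 percentage points was smaller than the spread between replicates (two-sided exact permutation test over the lists, p = 0.667). It was -1.02 percentage points when the window was narrowed to 500 bp on each side, and the same when only peaks centred in the window were counted.

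A peak in all 4 ATAC lists was present at 35 members, or 71.4%, against 57.1% of all genes and 92.9% of genes with a CpG-rich window. Within the families the counts were 18 of 19 forkhead, 3 of 8 Pax, 4 of 5 Gata, 6 of 8 Lhx, 3 of 4 sine oculis homeobox and 1 of 5 Nkx genes. The forkhead genes thus held about the share of CpG-rich genes, and the Pax and Nkx genes were more often missed in at least 1 list. Among the Nkx genes, Nkx2-1 (lung and thyroid), Nkx2-2 (neural tube and pancreas) and Nkx2-5 (heart) had no peak in scramble KD replicate 1, the ATAC library with the fewest tags. Nkx6-1, a beta-cell factor, was the family's sole member with a peak in each list. Among the 38 genes of the 6 families that are not members, 25 (65.8%) had a peak in all 4 lists.

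The ATAC peaks of the members were of middling strength. When the peaks of a list were ranked by p-value, with 100 for the strongest, the strongest peak in a member's window had a median rank percentile of 58.4, 56.5, 61.2 and 57.4 in the 4 lists. At genes with a CpG-rich window and a peak these medians were 81.3, 86.0, 84.9 and 87.3. Members with a peak lay from the 1.1 to the 91.9 percentile. The medians of the Lhx genes (43.5 to 52.7 over the lists) were below those of Six2, Six3, Six4 and Six6 (67.9 to 78.0) in every list, a description of 8 and 4 genes that carries no test.

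**Figure D2:**
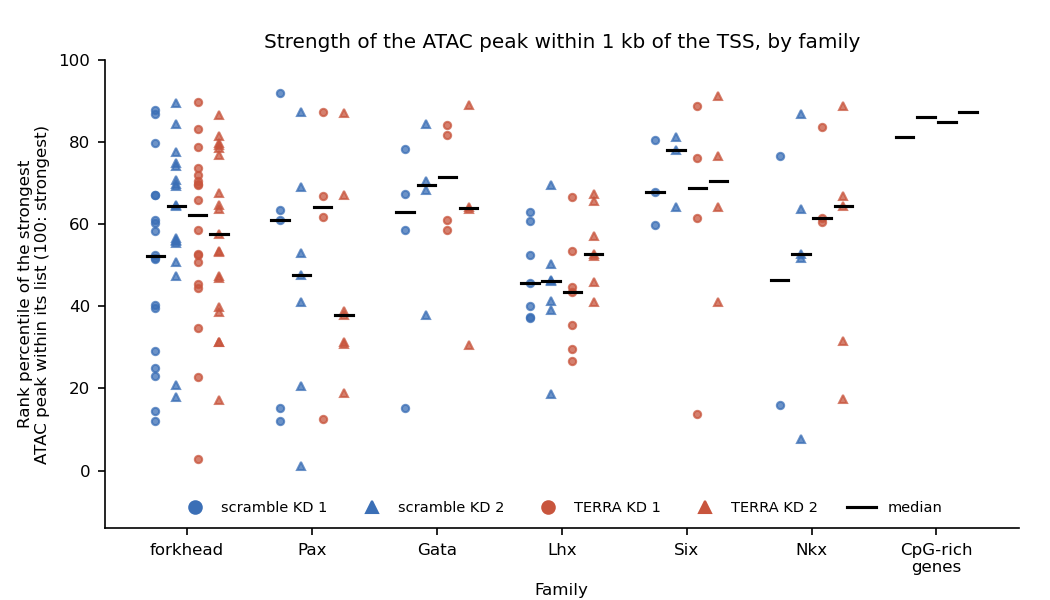
Rank percentile of the strongest ATAC peak in the TSS window of each member with a peak, by family. Points are genes in 1 list, colours and shapes give condition and replicate, and bars are medians; the bars at the right give the medians of genes with a CpG-rich window, from 81.3 to 87.3, above every family median.

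Ordered by the lowest rank over the 4 lists, the first member was Pax9, a factor of vertebrae and teeth, whose TSS peak ranked at the 91.9 and 87.3 percentile in scramble KD and at 87.4 and 87.2 in TERRA KD, with pileups of 50, 53, 43 and 49 fragments. Foxa3, a liver factor, followed with percentiles of 86.9 and 89.6 under scramble KD against 89.8 and 86.6 under TERRA KD. Foxa3 ranked above Pax9 in scramble KD replicate 2 and TERRA KD replicate 1. Its window also holds the start of Sympk, so the peak cannot be assigned to either gene. Both genes stayed within a few percentiles over the 4 lists.

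Foxp2, a regulator of neurons of speech and motor circuits, ranked at 87.7 and 84.3 under scramble KD against 83.3 and 79.4 under TERRA KD. Gata3, a factor of T cells and trophoblast, ranked at 78.4 and 84.5 against 81.8 and 89.0, but its peak was centred about 1 kb upstream of the TSS, from -995 to -1041 bp. Six4, a muscle regulator, ranked at 80.5 and 78.0 against 76.2 and 76.7. At Foxp2 and Six4 both TERRA KD values lay slightly below both scramble KD values, and at Gata3 the conditions overlapped.

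Nkx6-1 ranked at 76.7 and 86.9 under scramble KD against 83.8 and 88.8 under TERRA KD. Gata5, a factor of heart and endoderm, ranked at 67.4 and 70.6 against 84.2 and 64.2. Pax8, which directs thyroid and kidney, ranked at 63.5 and 69.1 against 66.8 and 67.1, with the peak centre 1061 to 1368 bp downstream of the TSS. Lhx5, a forebrain gene, ranked at 60.9 and 46.5 against 53.4 and 57.1, and Lhx9, a gonad gene, at 45.8 and 69.5 against 66.6 and 67.4. In all 5 genes of this paragraph the values of the conditions overlapped.

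The peak of Six6, a regulator of eye and pituitary, ranked at 67.9 and 81.3 under scramble KD against 88.9 and 91.3 under TERRA KD, with fold enrichments of 6.21 and 8.69 against 9.38 and 10.5. Both TERRA KD values were above both scramble KD values, and no test of this single gene was made. Six3, its relative of the forebrain and eye, had an ATAC peak under TERRA KD in either replicate and none under scramble KD, a pattern seen in 0.600% of all genes. The 2 Six3 peaks did not overlap, with centres at 1000 and 4 bp from the TSS and rank percentiles of 13.7 and 41.0. Six3 was singled out after its values were seen.

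Pax2 and Gata2 had no ATAC peak in any list at the most upstream start, the TSS used here, a state shared by 32.8% of all genes but by 1.17% of genes with a CpG-rich window, to which both belong. Both genes have further curated starts, which were not without peaks. Pax2, a kidney and eye regulator, had an ATAC peak in all 4 lists at the starts 9.15 and 10.3 kb downstream, at percentiles of 37.4 or lower. Gata2, which maintains blood stem cells, had one at the start 4.77 kb downstream in TERRA KD replicate 2, at the 20.1 percentile. A stronger peak of Pax2, about 62 kb downstream of the TSS, ranked at the 88.1 and 89.8 percentile in scramble KD and at 79.2 and 89.6 in TERRA KD. Gata2 had a peak 10.4 to 10.5 kb downstream in every list, at percentiles of 70.4 and 46.0 under scramble KD against 61.1 and 46.5 under TERRA KD. The authors called ATAC peaks without an input.

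G4 peaks were more frequent at the members than at genes of like base composition in 3 of the 4 lists, and about as frequent in TERRA KD replicate 2. They were found at 40 members in scramble KD replicate 1, 48 in replicate 2 and 46 in TERRA KD replicate 1, but at 11 in TERRA KD replicate 2. All genes gave 41.2%, 64.1%, 48.5% and 22.1% in the same order. With all genes weighted to the members' deciles of GC content, the shares were 73.8%, 84.6%, 78.8% and 20.7%, against 81.6%, 98.0%, 93.9% and 22.4% of the members. Genes with a CpG-rich window, without this weighting, gave 63.9%, 71.9%, 66.9% and 11%. The other 38 genes of the families gave 78.9%, 92.1%, 78.9% and 15.8%, close to the members in scramble KD replicate 1. Weighting by decile leaves differences in GC content within a decile.

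**Figure D3:**
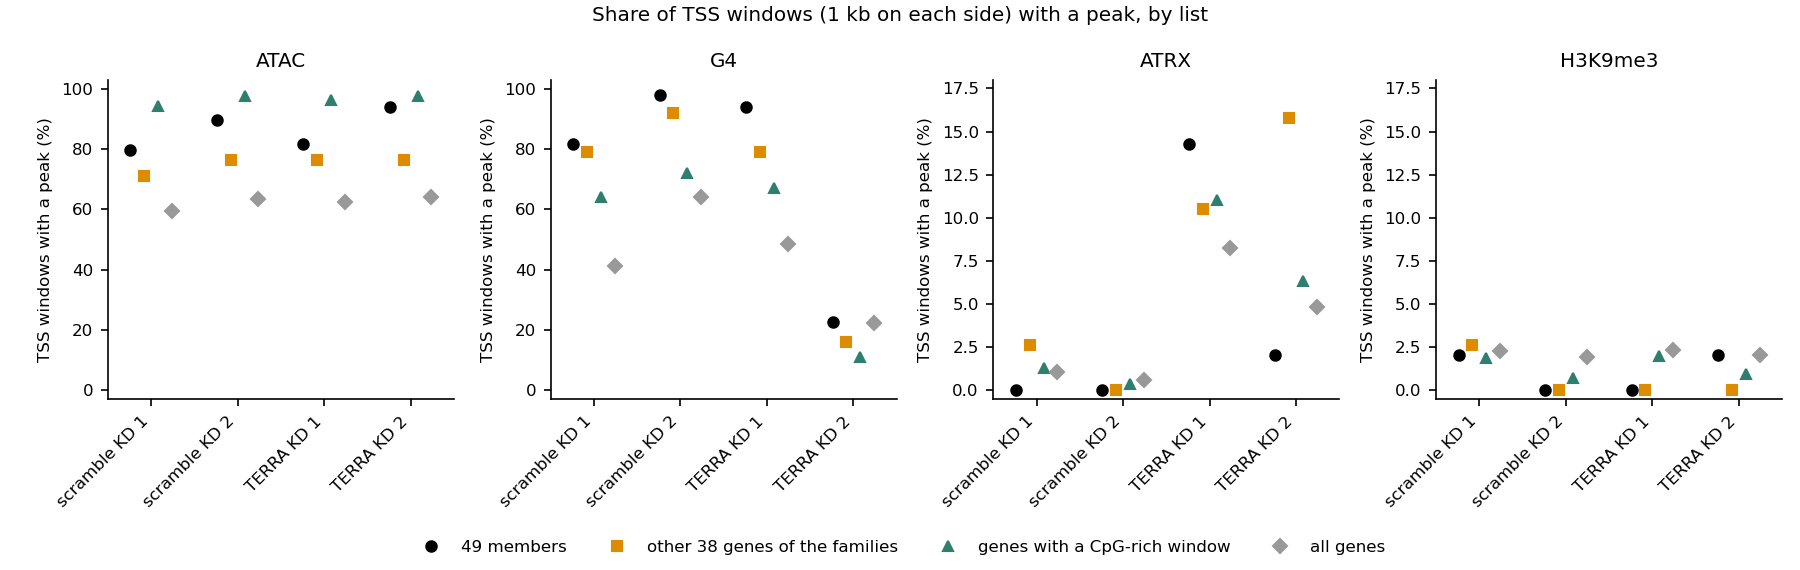
Share of TSS windows with a peak in each list. Points give the percentage for the 49 members, the other 38 genes of the families, the genes with a CpG-rich window and all genes, with 1 panel per assay; the axes of ATRX and H3K9me3 are enlarged. Members lay above all genes in ATAC and in 3 G4 lists, and about level with all genes in G4 TERRA KD replicate 2. They lay below CpG-rich genes in ATAC and above CpG-rich genes in G4.

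Between conditions the G4 counts depended on the replicate. The means were 89.8% ± 11.5 of members in scramble KD and 58.2% ± 50.5 in TERRA KD (SD, n = 2), a difference of -31.6 percentage points (two-sided exact permutation test, p = 0.667). In replicate 1 the count rose from 40 to 46 and in replicate 2 it went from 48 to 11, so the 2 replicates moved in opposite directions. Without TERRA KD replicate 2, the difference was 4.08 percentage points. A G4 peak in scramble KD replicate 2 and none in TERRA KD replicate 2 was found at 37 members (75.5%) against 43.6% of all genes and 61.9% of genes with a CpG-rich window. The other 38 genes of the families showed it about as often as the members (29 genes, 76.3%). The pattern needs a peak in scramble KD replicate 2, which 48 of 49 members had, against 64.1% of all genes and 71.9% of CpG-rich genes.

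TERRA KD replicate 2 differed from the other G4 lists in its dependence on base composition. In the other 3 lists the share of windows with a peak was highest or close to it in the richest decile of GC content, at 89.6%, 87.6% and 90.8%, and it was at most 9.34% in the poorest. In TERRA KD replicate 2 the share was 29.6% in the fourth decile and fell to 15.1% in the richest, where 17 of the members lie. The 11 members with a peak in that list had a median GC content of 55.7%, the 38 others 58.8%. This list is not the shallowest, with 13127555 tags against 5759282 in TERRA KD replicate 1. The part of this difference between libraries in the counts of the members was not tested.

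**Figure D4:**
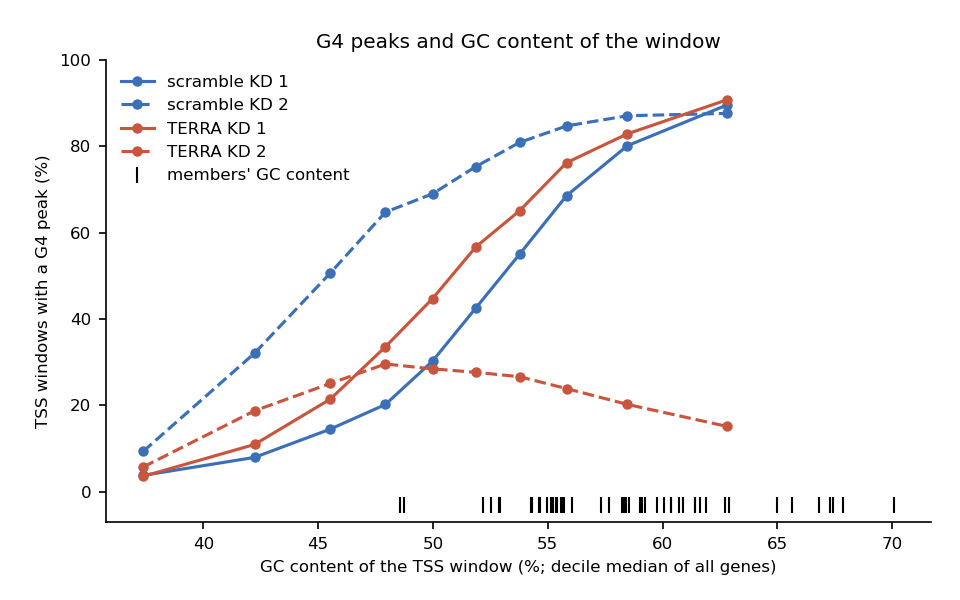
Share of all TSS windows with a G4 peak (vertical axis, %) by decile of GC content (horizontal axis, % at the decile median) in the 4 lists, with ticks for the 49 members. Solid lines are replicate 1 and dashed lines replicate 2; 3 lines rise to between 87.6% and 90.8%, while TERRA KD replicate 2 ends at 15.1%.

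Without regard to TERRA KD replicate 2, 37 members (75.5%) had a G4 peak in each of the other 3 lists, against 29.2% of all genes and 43.7% of genes with a CpG-rich window. The other 38 genes of the families were nearer to the members, with 26 genes (68.4%). With that list included, 10 members had a peak in all 4 lists (20.4%, against 9.16% of all genes): Foxa3, Foxb1, Foxf2, Foxi1, Pax5, Gata5, Lhx6, Six4, Nkx2-1 and Nkx2-5. Every member had a peak in at least 1 list. The strongest TSS peak of Six4 held 21 and 62 tags under scramble KD against 42 and 39 under TERRA KD, at rank percentiles of 96.5, 78.8, 91.2 and 40.0. That of Gata5 held 17 and 117 tags under scramble KD against 34 and 18 under TERRA KD, and the last of these was centred at -1070 bp from the TSS, away from the others. Foxi1, an inner ear and ionocyte factor without a CpG-rich window, held 11 and 64 against 30 and 37 tags. Tag numbers were not scaled to the depth of the libraries. Scramble KD replicate 2, the deepest G4 library, was highest in each of these genes. TERRA KD replicate 2 was deeper than TERRA KD replicate 1 (13127555 against 5759282 tags). It still held fewer tags at Six4 and Gata5, and more at Foxi1.

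The 2 shallower lists marked partly different members. In scramble KD replicate 1, 9 members lacked a peak in the TSS window, namely Foxa1, Foxa2, Pax1, Pax3, Pax6, Pax8, Pax9, Lhx3 and Lhx8, of which 5 are Pax genes. In TERRA KD replicate 1, with 5759282 tags against 2961038, the members without a peak were Pax9, Gata3 and Six6. The Pax family thus went from 3 to 7 of 8, the forkhead family from 17 to 19 of 19 and the Lhx family from 6 to 8 of 8, whereas the Gata family went from 5 to 4 of 5 and the sine oculis homeobox family from 4 to 3 of 4. All 5 Nkx genes had a peak in both. In all, 8 members (16.3%) had a peak in TERRA KD replicate 1 and none in scramble KD replicate 1, near the 15.4% of all genes, and 2 members (4.08%) had the opposite, against 8.08% of all genes.

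Gata3 and Six6 were the members whose G4 peak in the TSS window was present under scramble KD in each replicate and missing from both TERRA KD lists. This was a pattern of 4.74% of all genes and 8.20% of genes with a CpG-rich window. The 2 of 49 members (4.08%) were near the background. At Six6 the peaks held 5 and 64 tags, with centres 171 and 191 bp downstream of the TSS and rank percentiles of 12.8 and 82.9, and no G4 peak lay elsewhere in the gene under TERRA KD. Its window held no G4 motif. At Gata3 the strongest peaks held 7 and 43 tags and were centred 693 and 1212 bp downstream. A weaker peak of scramble KD replicate 2, with 17 tags at the 8.9 percentile, spanned the sequence with the motifs printed above. A G4 peak in both TERRA KD and neither scramble KD list was found at no member.

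A G4 peak did not require an ATAC peak in the same window. Gata2, without an ATAC peak at its most upstream start in any list, had some of the strongest G4 peaks of the members, with 18, 99 and 49 tags and rank percentiles of 94.5, 89.3 and 96.1 in scramble KD replicates 1 and 2 and TERRA KD replicate 1. These peaks covered the start site, and the Gata2 window held no G4 motif. Pax2 held 4, 39 and 14 tags in the same lists, at percentiles of 29.6, 75.2 and 42.4. Lhx2, with an ATAC peak in TERRA KD replicate 1 alone (percentile 29.7), held 6, 30 and 22 tags at 35.1, 39.7 and 88.1, and these peaks overlapped both printed motifs. None of the 3 genes had a G4 peak in the TSS window in TERRA KD replicate 2, but the gene bodies of Gata2 and Pax2 held such peaks there.

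In 3 of the 4 lists most members had a G4 peak both with and without a motif in the window. With so few members lacking a peak a relation could hardly show, and none was tested. Of the 39 members with a motif in the window, 33, 39, 37 and 8 had a peak in the 4 lists, and of the 10 without, 7, 9, 9 and 3 did. The 10 were Foxh1, Foxq1, Pax1, Pax5, Gata2, Gata5, Lhx3, Lhx8, Six6 and Nkx6-2. Foxd3, a regulator of pluripotency and neural crest with 4 motifs in its window, held 11, 47 and 42 tags at percentiles of 80.6, 74.3 and 91.3, and no peak in TERRA KD replicate 2. Foxh1, a partner of Smad proteins in Nodal signalling, held 5, 65 and 14 tags in the same lists, centred 891 to 1065 bp downstream. The strongest peaks of the members had median lengths of 813, 1606, 1720.5 and 1234 bp in the 4 lists, too long to place a G4 on a single motif.

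ATRX peaks at the members' start sites were few and were found under TERRA KD alone. In scramble KD replicates 1 and 2 the windows of all 49 members were free of ATRX peaks, where 1.07% and 0.588% of all genes held one. In TERRA KD replicate 1 the count was 7 (14.3%, all genes 8.22%, genes with a CpG-rich window 11%), and in replicate 2 it was 1 (2.04%, all genes 4.83%, CpG-rich 6.31%). The members' shares lay on either side of the background in the 2 lists. The difference between the means was 8.16 percentage points (0% in each scramble KD list against 8.16% ± 8.66 for TERRA KD, SD, n = 2), and the exact permutation test gave its smallest possible value (p = 0.33). The other 38 genes of the families had 1, 0, 4 and 6 in the 4 lists.

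The ATRX lists themselves held 7321 and 13652 peaks under scramble KD against 41384 and 21718 under TERRA KD. Their libraries had 6606064 and 15506154 tags under scramble KD against 4104486 and 14878010 under TERRA KD. TERRA KD replicate 1 was thus the shallowest ATRX library and had the most peaks. The part of depth in these numbers was not tested. When the same number of top-ranked peaks was taken from both conditions of a replicate, no member had an ATRX peak at the TSS in any list, and the same held at a −log10 p of 5 or more. The shares of all genes with equal numbers of peaks were 1.07% and 0.588% under scramble KD against 0.909% and 3.39% under TERRA KD.

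The 7 members in TERRA KD replicate 1 were Foxf1, Foxf2, Foxp2, Pax7, Pax9, Lhx1 and Lhx5. Foxf1 and Foxf2 act in the mesenchyme of gut and lung, Pax7 in muscle stem cells, and Lhx1 and Lhx5 in the early head and forebrain. Their peaks rested on 4 to 8 tags each with −log10 p from 2.04 to 3.28. The strongest were at Pax9, with 8 tags centred at -770 bp, and Lhx5, with 5 tags centred at -824 bp from the TSS. All 7 had a G4 motif in the window, as did 39 of the 49 members.

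Lhx1 was the member with an ATRX peak at the TSS in both TERRA KD and neither scramble KD list, a pattern of 0.710% of all genes and 1.11% of genes with a CpG-rich window. The peak held 4 tags in replicate 1 (fold enrichment 9.50, −log10 p 2.14) and 8 tags in replicate 2 (3.55, 2.05), at rank percentiles of 18.5 and 10.6 of its list. The 2 peaks overlapped, at chr11:84525667-84526080 in replicate 1 and chr11:84525519-84525950 in replicate 2. The peak of replicate 1 lay upstream of the TSS on the minus strand and across part of the sequence printed above. That of replicate 2 covered the TSS and the whole printed sequence. The antisense gene Lhx1os starts in the same window. An ATAC peak lay at this place in all 4 lists, with pileups of 17 and 17 under scramble KD against 14 and 21 under TERRA KD, and the strongest G4 peaks of the window held 5 and 29 tags (scramble KD) and 45 tags (TERRA KD replicate 1). Accessibility at Lhx1 thus overlapped between the conditions.

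Across gene bodies, too, ATRX peaks were more numerous under TERRA KD. Foxp1 and Foxp2, by far the longest members (595.7 and 540.6 kb), held all 10 and 15 gene body peaks of the scramble KD lists. Foxp1 had 8 and 7 peaks (scramble KD) against 13 and 14 (TERRA KD), without overlap, and Foxp2 had 2 and 8 against 6 and 4, with overlap. The other 47 gene bodies, 988.2 kb in all, were empty in both scramble KD lists and held 21 and 17 peaks under TERRA KD, in 13 and 14 genes. Per 100 kb this was 2.13 and 1.72 peaks in TERRA KD, where the bodies of all genes gave 1.59 and 1.00, against 0.288 and 0.481 for all genes in scramble KD. Counted by gene, 2 and 2 of 49 members had an ATRX peak in the body under scramble KD, against 9.13% and 11.8% of all genes. Under TERRA KD 15 and 16 members had one, against 31.6% and 23.6% of all genes. Per member, scramble KD gave 0.204 and 0.306 peaks (0.255 ± 0.0722, SD, n = 2), while TERRA KD gave 0.816 and 0.714 (0.765 ± 0.0722). The conditions did not overlap, and the difference of 0.510 peaks per member reached the smallest p of the exact permutation test (p = 0.33). With equal numbers of top-ranked peaks the difference was 0.0204.

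An ATRX peak in the window or the gene body in both TERRA KD and neither scramble KD list was found at 10 members (20.4%), against 7.71% of all genes, 11% of genes with a CpG-rich window and 5 of the other 38 genes of the families. They were Foxa3, Foxf1, Pax5, Pax6, Pax7, Pax8, Gata2, Lhx1, Lhx2 and Lhx5, so 4 of the 8 Pax and 3 of the 8 Lhx genes. With equal numbers of top-ranked peaks 1 member was left. At Gata2 the peaks of the replicates overlapped, 11.9 and 11.7 kb downstream of the TSS, with 6 and 19 tags and −log10 p of 2.42 and 2.84, and both overlapped a G4 peak of the same condition and replicate. At Foxf1 they overlapped 1.09 and 1.49 kb downstream, with 4 and 9 tags. At the other 7 genes the replicates had peaks at different places. Of the 26 peaks of TERRA KD replicate 1 outside Foxp1 and Foxp2, 10 overlapped an ATAC peak and 11 a G4 peak of the same replicate, and of the 17 of replicate 2, 2 and 4 did. The shares of all ATRX peaks of these lists with such overlaps were not computed, so these counts show no association.

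**Figure D5:**
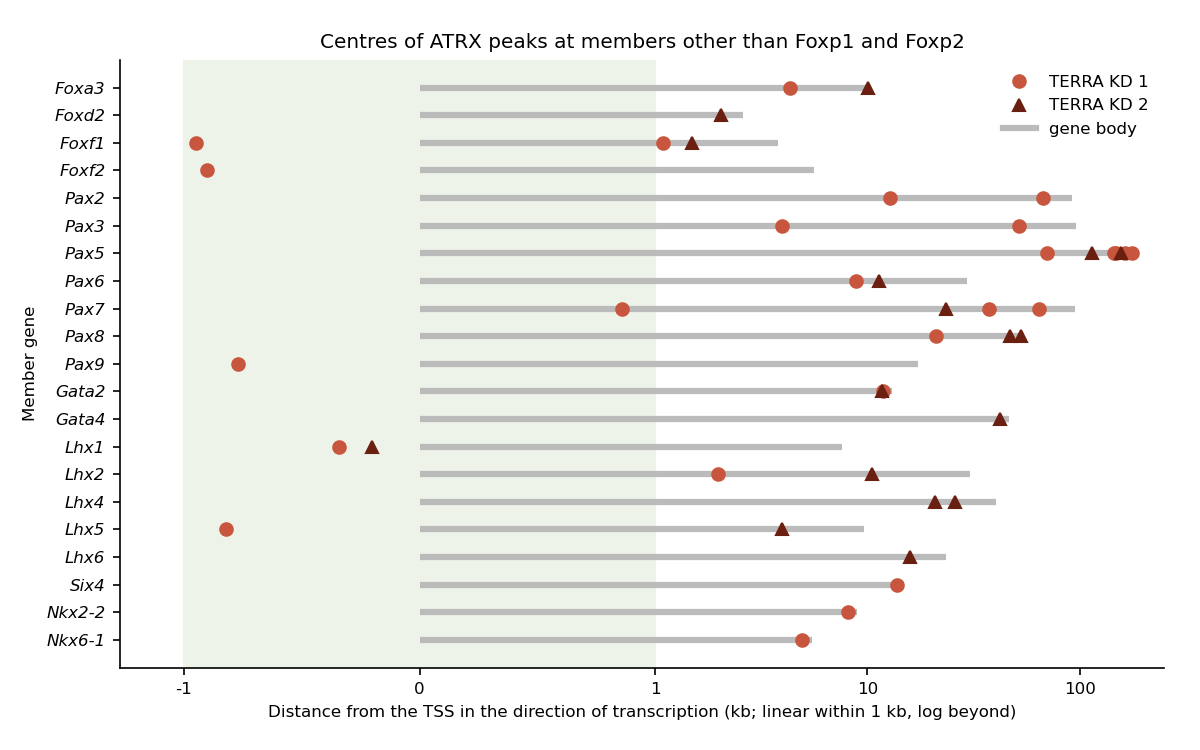
Centres of ATRX peaks in the window or body of members other than Foxp1 and Foxp2, as the distance from the TSS (kb, linear within 1 kb and logarithmic beyond). Circles are TERRA KD replicate 1, triangles TERRA KD replicate 2 and grey bars gene bodies; no scramble KD peak lies in these genes. Circle and triangle come together at Lhx1, Gata2 and Foxf1.

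The strongest ATRX peak of these genes lay in Foxa3, 4.33 kb downstream of the TSS in TERRA KD replicate 1, with 6 tags and a −log10 p of 4.29. It overlapped a G4 peak and an H3K9me3 peak of the same replicate, the sole ATRX peak of the 47 genes to overlap H3K9me3. In TERRA KD replicate 2 the ATRX peak of Foxa3 was at the 3′ end, 10 kb downstream, with 18 tags. Lhx5 followed with a peak of 15 tags and a −log10 p of 4.03 in replicate 2, 3.94 kb downstream.

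H3K9me3 peaks at the members' start sites were few, about as rare as over all genes. Peaks were found at 1, 0, 0 and 1 of 49 members in scramble KD replicates 1 and 2 and TERRA KD replicates 1 and 2, against 2.28%, 1.96%, 2.35% and 2.07% of all genes. The 2 members with a peak in any list (4.08%, all genes 5.23%, genes with a CpG-rich window 3.29%) were Foxd3 and Lhx5. At Foxd3, in scramble KD replicate 1, the peak held 21 tags with a −log10 p of 2.01 and ranked at the 0.4 percentile of its list. At Lhx5, in TERRA KD replicate 2, it held 5 tags with a −log10 p of 2.36 and was centred 1123 bp downstream. Neither was found in the other replicate of its condition, and the mean was 1.02% ± 1.44 in each condition (SD, n = 2, exact permutation test, p = 1.0).

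In the gene bodies H3K9me3 was also sparse outside Foxp1 and Foxp2. The other 47 genes held 3, 5, 3 and 7 peaks in the 4 lists, or 0.304, 0.506, 0.304 and 0.708 per 100 kb, whereas the bodies of all genes gave 0.605, 1.81, 0.55 and 1.76. Foxp1 held 3, 2, 0 and 6 and Foxp2 0, 23, 0 and 6. Per member there were 0.122 and 0.612 peaks (scramble KD) against 0.0612 and 0.388 (TERRA KD), and the difference of -0.143 was smaller than the spread between replicates (exact permutation test, p = 0.667). It was 0.0213 without Foxp1 and Foxp2. The lists of replicate 1 held longer peaks (medians of 2404 and 3119 bp) than those of replicate 2 (491 and 515 bp). The strongest H3K9me3 peak of the 47 genes lay in Lhx9, 6.91 kb downstream in scramble KD replicate 1 with 132 tags and a −log10 p of 11.4, and a peak at 6.89 kb with 93 tags was present in TERRA KD replicate 1. Both replicate 2 lists had no H3K9me3 peak in Lhx9. Foxf1 had a peak near its 3′ end in 3 lists, with 45 and 5 tags under scramble KD and 80 tags in TERRA KD replicate 1.

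Outside Foxp1 and Foxp2, ATAC and G4 peaks in the gene bodies were denser at the members than over all genes. ATAC peaks per member were 2.55 and 3.16 under scramble KD against 2.78 and 3.45 under TERRA KD, a difference of 0.255 within the spread between replicates (exact permutation test, p = 0.667). Outside Foxp1 and Foxp2 they came to 9.41, 12.1, 10.9 and 13.5 per 100 kb, where the bodies of all genes gave 4.39, 5.32, 4.82 and 5.60. G4 peaks per member were 4.35 and 12.0 under scramble KD against 5.76 and 5.90 under TERRA KD, a difference of -2.34 (p = 1.0 by the same exact permutation test). Per 100 kb of the 47 genes there were 15.4, 36.4, 22.0 and 17.0 G4 peaks, against 6.33, 19.1, 8.82 and 11 over all genes. Foxp1 alone had 41, 190, 47 and 94 G4 peaks. Foxp1 and Foxp2 make up 1136.3 of the members' 2124.5 kb of gene body. Their ATAC density was below that of all genes in every list, at 2.82, 3.08, 2.46 and 3.17 per 100 kb. Their G4 density was below that of all genes in each list except scramble KD replicate 2. The 47 bodies were also shorter than those of all genes, with medians of 7560 and 13451 bp. The part of body length in these densities was not tested. In TERRA KD replicate 2, with 11 of 49 start sites marked, the bodies of the 47 genes held 168 G4 peaks, spread over 27 genes against 46 or 47 genes in the other lists.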

How the data were processed

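The peak lists were used as deposited. Per the submitters' processing notes, the study's methods and the file headers, the authors trimmed reads (Trim Galore 0.5.0), aligned them to GRCm38/mm10 (Bowtie2 2.3.4.1), sorted and deduplicated them (SAMtools 1.9) and called peaks per replicate at p = 0.01 with MACS 1.4.3 (ATRX, H3K9me3), 1.4.2 (G4) and 2.2.7.1 (ATAC). For each peak the authors deposited a count of tags, a score made from log10 p, a fold enrichment over background and a false discovery rate in percent, and for ATAC a pileup signal, −log10 p and q and a fold enrichment. The score was rescaled to −log10 p, and the false discovery rates and q-values were not used.

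Gene models were the curated transcripts of RefSeq GRCm38.p6 (45.9% of genes CpG-rich), the TSS being the most upstream transcript start, and any overlap of 1 bp counted. Lists were compared over 2 replicates per condition by an exact two-sided permutation test, whose p measures only the spread between these samples. The study calls the replicates biological, but the labels do not say whether they were separate cultures. Overlap counting and the test were tested on simulated data. Named genes were those with an ATRX or H3K9me3 TSS peak in 2 or more lists, a G4 TSS peak in both lists of 1 condition and neither of the other, no ATAC TSS peak in any list, or the 2 best ATAC ranks of their family by the lowest rank over the 4 lists (a missing peak ranking last). Other genes given with values were chosen after their values were seen. The members, lists and tests were chosen with earlier results of these data known. Scripts used Python 3.11.15, pandas 2.3.3 and pysam 0.24.0.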

Additional observations from a re-analysis of the deposited data

How the results depend on the processing

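The 14 counts and differences were recomputed with a stricter peak threshold (−log10 p of at least 5), windows of 500 bp and 2 kb, any curated transcript start, peak centres, equal numbers of top-ranked peaks and without each replicate. The settings without TERRA KD replicate 2 for G4, without Foxp1 and Foxp2, and those of the ATRX count over window and gene body were chosen after seeing the data. The causes of the changes below were not tested.

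At a −log10 p of at least 5, the ATRX differences were 0.0 at the TSS and 0.0 in gene bodies, the ATRX counts under TERRA KD were 0 (TSS) and 0 (window or body), G4 in all 4 lists and H3K9me3 in any list fell to 0 members, and G4 lost in both replicates rose from 2 to 4. With equal numbers of peaks the ATRX TSS difference was 0.0, the ATRX counts were 0 and 1, the H3K9me3 difference was 1.02 percentage points and its count 1. With 500 bp or with peak centres, the ATAC and H3K9me3 TSS differences were -1.02, G4 in all 4 lists was 6 and H3K9me3 in any list 1. With 2 kb the H3K9me3 difference was 1.02 and the ATRX count 3. The H3K9me3 gene body difference was 0.0213 without Foxp1 and Foxp2.

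Without each replicate in turn, the TSS differences ranged from -75.5 to 12.2 percentage points (G4; 4.08 without TERRA KD replicate 2 alone), from -2.04 to 2.04 (H3K9me3), from 2.04 to 4.08 (ATAC) and from 2.04 to 14.3 (ATRX), and the G4 gene body difference from -6.08 to 1.41 peaks per member. The other alternatives, 71 of 99 values, kept the direction of a difference or stayed within 1.5 times a count, but some changed a difference in size. The 71 include the values of the replicate block described below, which equal the main differences by arithmetic and could not change. With equal numbers of peaks the gene body differences were 0.0204 (ATRX, from 0.510) and 0.0102 (ATAC, from 0.255) peaks per member.

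Samples share only a replicate number. With 2 pairs the replicate block (an exact sign-flip test) has by arithmetic the same differences, 3.06 (ATAC), -31.6 (G4), 8.16 (ATRX) and 0.0 (H3K9me3) percentage points. Its smallest possible p is 0.5. Over stretches of 1000000 bp, deviations of same-numbered lists correlated at 0.10 (ATAC), 0.56 (G4), 0.05 (ATRX) and 0.29 (H3K9me3).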
